A study of Mus musculus with 4 samples.

Results

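The Hmox1 locus was described from all called peaks of 3 transcription factors whose summit, the base with the most overlapping fragments, lay within a window of 50 kb on mouse chromosome 8 (77590000 to 77640000, build mm9). The window held 9 of the 7017 peaks in the series: 4 of 3873 for Bach1, 3 of 1385 for Bach2 and 2 of 1759 for Mafk. The locus was chosen by its peaks, which were already known to be strong, so the positions, pileups and fold enrichments given here describe it and are not tested. The peaks came from chromatin immunoprecipitation and sequencing (ChIP-seq) in M1, an established line of mouse myeloid leukemia cells that received no stimulus. Each factor had 1 library, made with an in-house antibody to Bach1 (A1-6), an in-house antibody to Bach2 (Bach2N2) or the commercial antibody NF-E2 p18 (c-16), NF-E2 p18 being another name of Mafk. An input DNA library, without antibody, was also made, and its own signal is not analysed here. No allele, transgene or agent was named for any library.

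Hmox1 encodes heme oxygenase 1, the inducible enzyme that breaks heme down into biliverdin, carbon monoxide and free iron. Bach1 is a repressor that pairs with small Maf proteins such as Mafk to occupy stress response elements (also called Maf recognition elements), and heme releases it from DNA. Bach2 is its close relative, best known from B cells. In the mouse gene these elements are clustered in distal enhancers upstream of the start site, often called E1 (near -4 kb) and E2 (near -10 kb), where the activator NRF2 with a small Maf can take the place of Bach1 under stress.

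Peaks lay at 4 places, named here by the distance of the summit from a transcription start taken near 77617500, with the gene running towards higher coordinates. At the -10 kb site were Bach1 (77605569 to 77608487), Bach2 (77607542 to 77608121) and Mafk (77607664 to 77608117). At the -4 kb site were Bach1 (77612939 to 77614159), Bach2 (77613398 to 77613934) and Mafk (77613415 to 77613803). The promoter held Bach1 (77617280 to 77617749) and Bach2 (77617323 to 77617564) without a Mafk peak. A last Bach1 peak (77632481 to 77632731) had its summit 15102 bp past the start. An annotation of mm9 was not used here, so exons and introns are not assigned. In the RefSeq gene order of another build, GRCm38.p6, the nearest protein-coding neighbours of Hmox1 are Tom1 on one side and Mcm5 on the other.

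**Figure D1:**
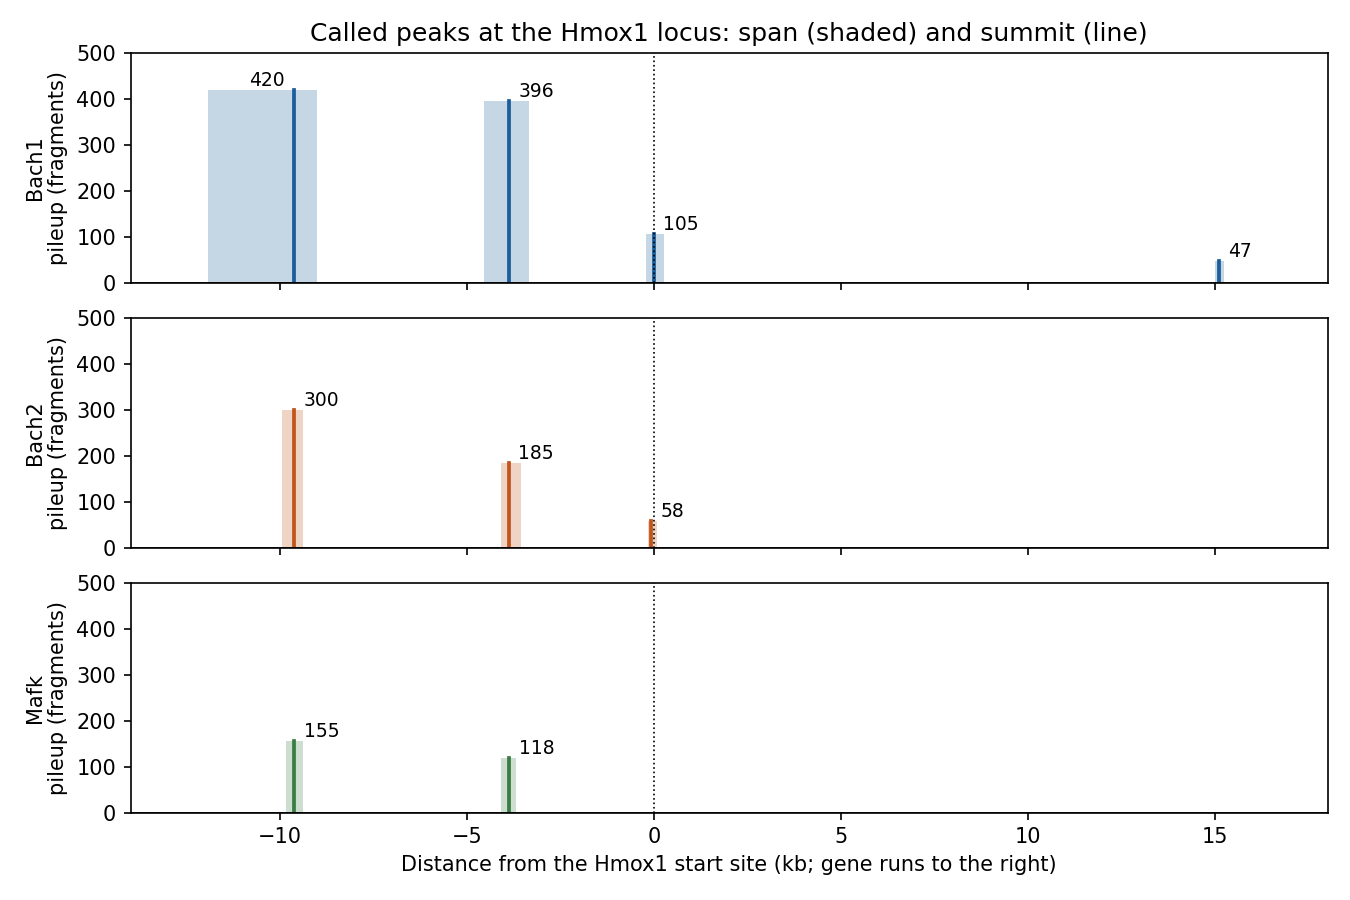
Called peaks of Bach1, Bach2 and Mafk (rows) by distance from the Hmox1 start in kb; shaded boxes span each peak, lines stand at the summit, and the height is the pileup at the summit in fragments (1 library per factor). All 3 factors have peaks at -10 kb and -4 kb, Bach1 and Bach2 at the promoter, and Bach1 alone at +15 kb.

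The distal sites carried more signal than the promoter for both factors that had peaks at both. Signal is given as the deposited pileup, the number of fragments that overlap at the summit, with an exact 95% Poisson interval that covers counting error only and takes no account of the choice of the summit. Bach1 pileup was 420 fragments at -10 kb (381 to 462), 396 at -4 kb (358 to 437), 105 at the promoter (85.9 to 127) and 47 at +15 kb (34.5 to 62.5). Bach1 was thus high at both upstream sites, whose intervals overlapped, and lower at the promoter and again at +15 kb. Bach2 pileup was 300 fragments at -10 kb (267 to 336), 185 at -4 kb (159 to 214) and 58 at the promoter (44.04 to 74.98), 3 levels whose intervals did not overlap. Mafk pileup was 155 fragments at -10 kb (132 to 181) and 118 at -4 kb (97.7 to 141), with intervals that overlapped. Even so, the counting interval of the Mafk ratio of -4 kb to -10 kb (0.594 to 0.974) excluded no difference. There is no replicate library, so how far these values would move between cultures is unknown. Libraries differ in depth and antibody, so pileups are compared between sites of a factor and not between factors.

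The -4 kb site exceeded the promoter 3.77-fold in Bach1 pileup (exact 95% interval from counting error 3.03 to 4.72) and 3.19-fold in Bach2 pileup (2.36 to 4.36). The -10 kb site exceeded the promoter 4-fold for Bach1 (3.22 to 5.002) and 5.17-fold for Bach2 (3.89 to 6.98). The size of this step depended on the measure: in fold enrichment it was 2.81-fold for Bach1 and 3.78-fold for Bach2, both below those intervals, and in pileup less background 4.33-fold and 6.76-fold. Once the control background at each summit was subtracted from the pileup, the -4 kb site stood 4.13-fold above the promoter for Bach1 and 4.15-fold for Bach2. The Bach2 ratio of -4 kb to promoter pileup was 0.846 times the Bach1 ratio (0.579 to 1.24 from counting error); with 1 library per factor, this was not tested. The Bach1 peak at +15 kb had 44.8% of the promoter's pileup and 11.9% of that at -4 kb.

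The order of the upstream sites depended on the measure. In pileup, the -4 kb site had 0.943 times the level of the -10 kb site for Bach1 (0.820 to 1.08), 0.617 times for Bach2 (0.511 to 0.743) and 0.761 times for Mafk (0.594 to 0.974). In the deposited fold enrichment, the ratio of pileup to the local control background as the authors' peak caller gave it, the -4 kb site was instead the higher for Bach1 (33.0 against 23.1) and Mafk (7.70 against 6.87), and 0.925 times the -10 kb site for Bach2 (11.4 against 12.4). No interval was computed for fold enrichment. The background recovered from both columns was higher at -10 kb in every list: 17.2 fragments against 11.03 for Bach1, 23.3 against 15.3 for Bach2 and 21.7 against 14.5 for Mafk. These may not be separate observations, since the series has a single input library. Relative to the lowest background of each list, it was 4.03 to 4.16 times at -10 kb, 2.64 to 2.72 times at -4 kb, 2.84 to 3.04 times at the promoter and 2.97 times at +15 kb.

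The step from -10 kb to -4 kb is set side by side for the factors as a description of single libraries, with no test. Relative to Bach1, Bach2 had 0.654 times the ratio of -4 kb to -10 kb (exact interval from counting error 0.517 to 0.828). For Mafk relative to Bach1 the value was 0.807 (0.606 to 1.07), and for Mafk relative to Bach2 it was 1.23 (0.902 to 1.69). These intervals leave out the spread between cultures, which 1 library per factor does not show, so no difference between factors is called. The step in background between the sites was alike in the 3 lists (ratios of 0.640, 0.654 and 0.667), and in fold enrichment the value for Bach2 relative to Bach1 was 0.647. The series has a single input library, so the lists may share their control, and nothing is read from the likeness of their backgrounds.

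**Figure D2:**
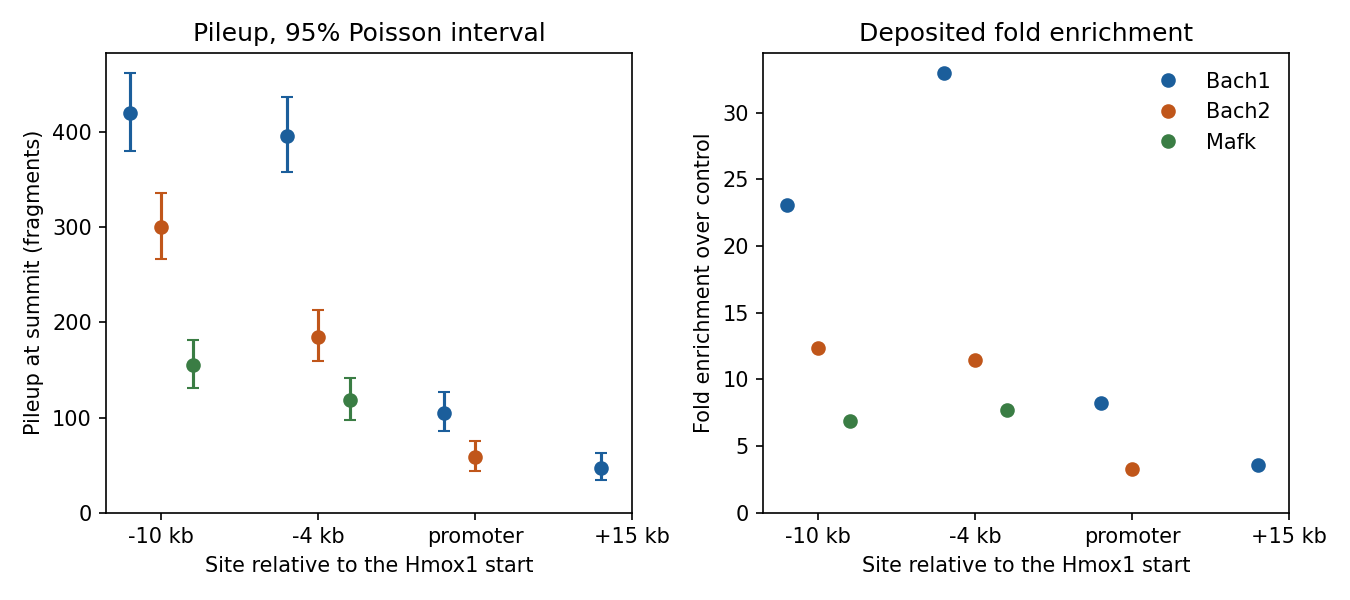
Pileup at the summit in fragments with exact 95% Poisson intervals (left) and deposited fold enrichment over the control (right) for each factor at the 4 Hmox1 sites, 1 library per factor. Pileup is highest at -10 kb for all 3 factors, but the intervals for Bach1 and for Mafk overlap those at -4 kb. The counting interval of the ratio of -4 kb to -10 kb includes no difference for Bach1 (0.820 to 1.08) but not for Mafk (0.594 to 0.974). Fold enrichment, shown without intervals, is highest at -4 kb for Bach1 (33.0) and Mafk (7.70).

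In pileup, each distal peak stood near the top of its own list, and the promoter peaks did not. Of the Bach1 peaks, 99.6% had a lower pileup than the -10 kb peak (rank 15) and 99.4% than the -4 kb peak (rank 23); in fold enrichment they ranked 36 and 10 of 3873. Of the 14 Bach1 peaks above the -10 kb peak in pileup, 13 had a control background of at least 5 times the lowest, as had 19 of the 22 above the -4 kb peak. Among the 3465 Bach1 peaks whose background was under 5 times the lowest, the -10 kb peak had rank 2 and the -4 kb peak rank 4 in pileup. That limit was chosen with results of these data known. The -10 kb peak was itself at 4.12 times the lowest, a background above that of 82.4% of the Bach1 list. Under the same limit the ranks at -10 kb and -4 kb were 5 and 33 of 1289 for Bach2, and 7 and 24 of 1704 for Mafk. For Bach2, 98.8% of the list lay below the -10 kb peak in pileup and 95.4% below the -4 kb peak. For Mafk these shares were 98.3% and 96.5% in pileup, but 82.4% and 89.2% in fold enrichment.

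The promoter peaks ranked lower. The Bach1 pileup at the promoter exceeded that of 84.8% of the list, with a fold enrichment of 8.22 against a list median of 4.66. Its Bach2 pileup exceeded only 38.8% of the list, and its Bach2 fold enrichment of 3.27, below the list median of 4.42, exceeded 18.4%. The Bach1 peak at +15 kb, with a fold enrichment of 3.58, exceeded 40.0% of the list in pileup and 28.2% in fold enrichment.

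Called peaks were longest for Bach1 at each site where factors overlapped. Called length, like pileup, depends on the depth and antibody of a library, so lengths of different factors are only set side by side. At -10 kb the Bach1 peak was 2919 bp long, against 580 bp for Bach2 and 454 bp for Mafk. At -4 kb the lengths were 1221, 537 and 389 bp, and at the promoter 470 bp for Bach1 and 242 bp for Bach2. The Bach2 and Mafk peaks lay wholly inside the Bach1 peak at every site they shared with it.

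The Bach1 peak at -10 kb was the fifth longest of its list. The 4 longer peaks, of which 2 were on the mitochondrial genome, had backgrounds of at least 17.2 times the lowest, so none of the Bach1 peaks with a background under 5 times the lowest was longer. Its extra length lay mostly on the side away from the gene: it began 1973 bp before the Bach2 peak and ended 366 bp after it. Its summit stood 2296 bp from the start and 622 bp from the end, so that 78.7% of the length preceded it, against a median of 49.6% in the Bach1 list (the middle 80% of peaks ran from 34.1% to 65.1%). No Bach2 or Mafk peak was called in the stretch before the Bach2 peak. The list gives 1 summit per peak, so whether this stretch holds further maxima was not tested. At -4 kb the Bach1 peak was more even, with 55.9% of its length before the summit, and it passed the Bach2 peak by 459 bp on one side and 225 bp on the other.

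Lengths were set beside peaks of the same list with a pileup within 10%. The Bach1 peak at -10 kb was 4.97 times the median of 27 such peaks (587 bp), and that at -4 kb 2.63 times the median of 25 (465 bp). Most of these peers were high-background peaks: only 4 and 5 of them had a background under 5 times the lowest, and their medians were 1182 and 1143 bp. Against those few, the -4 kb peak was of usual length and the -10 kb peak the longest. Bach2 and Mafk peaks at the upstream sites were between 0.866 and 1.53 times the median of all their peers. Among peers with a background under 5 times the lowest, the medians at -10 kb were 613 bp for Bach2 and 460 bp for Mafk. At -4 kb they were 518 and 507 bp, and 25 of the 29 such Mafk peers were longer than the Mafk peak. The promoter peaks were 0.942 times for Bach1 (209 peers) and 0.769 times for Bach2 (216 peers).

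**Figure D3:**
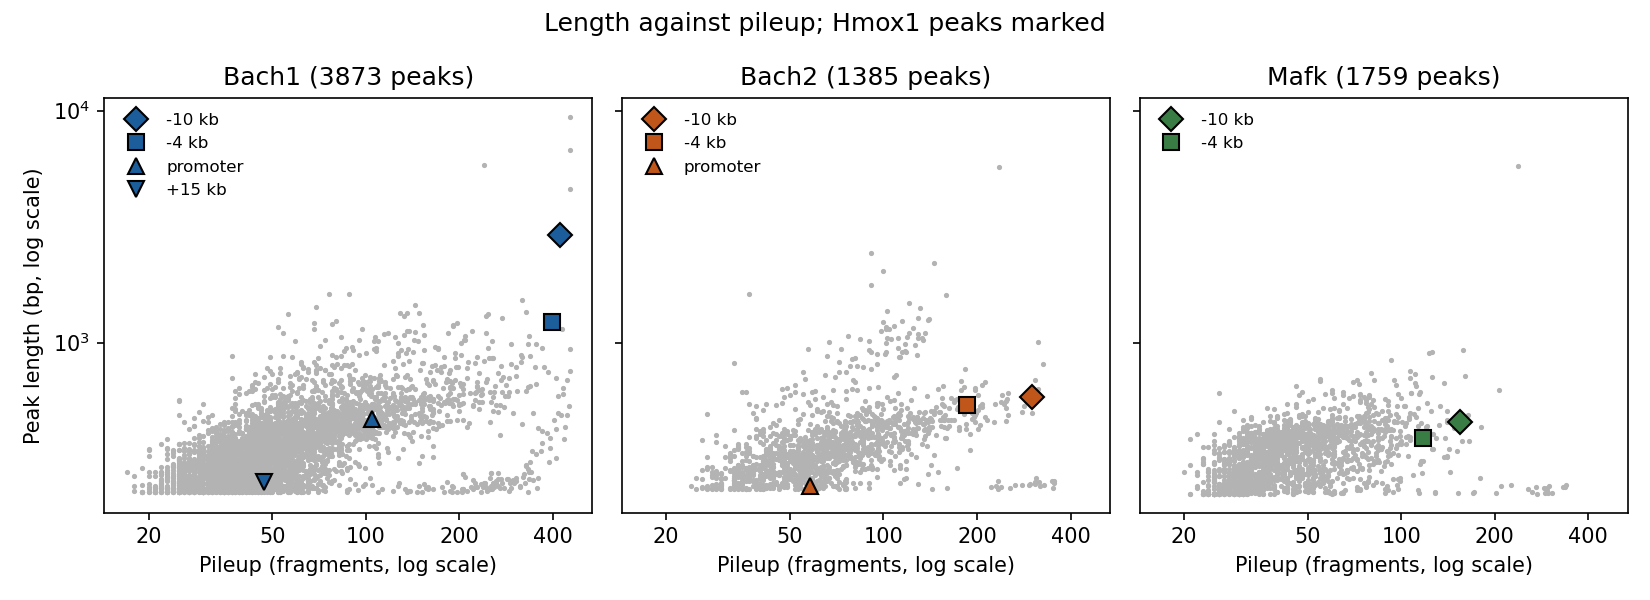
Peak length in bp against pileup in fragments (both log scales) for all peaks of each list in grey, with the Hmox1 peaks as coloured symbols. The Bach1 peak at -10 kb (2919 bp) lies well above the bulk of its list, while the Bach2 and Mafk peaks lie among peaks of like pileup.

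The summits of all 3 factors fell almost on the same base at both upstream sites. At -4 kb they were at 77613621 for Bach1, 77613613 for Bach2 and 77613622 for Mafk, a spread of 9 bp. At -10 kb they were at 77607865, 77607875 and 77607874, a spread of 10 bp. Over the 297 Bach1 peaks that overlap both other factors the median spread was 31 bp (quartiles 17 to 52), and 90.2% and 87.5% of them had a wider spread than the -4 kb and the -10 kb site. Bach1 and Mafk summits were 1 bp apart at -4 kb, and Bach2 and Mafk summits 1 bp apart at -10 kb, against a median of 19 bp over all shared sites of each pair. Neither reference was matched on pileup, and the part of the high pileup here in these short distances was not tested. At the promoter, the Bach2 summit (77617420) lay 71 bp before that of Bach1 (77617491), farther than at 88.1% of the sites shared by these factors, whose median distance was 22 bp. The Bach2 pileup here was low, at 58 fragments, and its part in this distance was not tested.

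By overlap of at least 1 bp, 3 of the 4 Bach1 peaks lay on a Bach2 peak (30.3% of the whole Bach1 list does) and 2 of 4 on a Mafk peak (10.8% of the list). A Bach1 peak lay at all 3 Bach2 peaks (as at 85.2% of the Bach2 list), and a Mafk peak at 2 of the 3 (21.7%). Both Mafk peaks lay on a Bach1 peak (23.9% of the Mafk list) and on a Bach2 peak (17.2%). The locus was chosen for these overlaps, so nothing is read from the excess over the lists. When peaks had to cover at least 50% of each other, the sites with all 3 factors went from 2 to 0 and those with Bach1 and Bach2 from 3 to 1. The Bach2 peak covered 19.9% of the Bach1 peak at -10 kb, 43.98% at -4 kb and 51.5% at the promoter. Whether either Bach antibody also recovers the other Bach factor was not tested.

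An uncalled peak has no value in these lists, so only a limit can be given for Mafk at the promoter. The control background there, scaled from the Bach1 list by the median background ratio at shared sites (1.29), came to 15.3 fragments for Mafk. Of the 224 Mafk peaks with a background within 20% of this, the lowest fold enrichment was 2.52, which at the promoter would have needed a pileup of about 40.2 fragments, or 34.0% of the Mafk pileup at -4 kb. The whole pileup, background included, was scaled to ask what Mafk would have had there. If Mafk had fallen from -4 kb to the promoter as Bach1 did, its pileup would have been 31.3 fragments, and as Bach2 did, 37.0. Both are below this limit, but the limit is approximate: the same 224 peaks include one called at a pileup of 36, and with backgrounds within 50% the limit was 37.9. The background did not fall with the signal: for Mafk it was 14.5 fragments at -4 kb and 15.3 expected at the promoter. Signal above background fell 4.13-fold for Bach1 and 4.15-fold for Bach2. Scaling only that signal would give higher Mafk values than those above, which were not computed. Whether Mafk at the promoter in proportion to either factor would have been called can thus not be told.

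A limit was computed likewise for the Bach1 peak at +15 kb. A Bach2 peak there would have needed about 43.0 fragments and a Mafk peak 39.8. Scaling the whole pileup, background included, from -4 kb in proportion to Bach1 would have given 22.0 and 14.0. These values are too low, since the 14.0 for Mafk is below the background of 16.0 expected there. Scaling only the signal above background was not done. An uncalled peak has no value in the lists, so a Bach1 peak without partners at this site is not shown to lack them.

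The balance of the factors was shifted towards Bach1 at the -4 kb site and the promoter, and was within the usual range at -10 kb. At sites where Bach2 and Bach1 summits lay within 100 bp, the median ratio of Bach2 to Bach1 pileup was 0.798 (quartiles 0.610 to 1.09, 1088 sites). It was 0.714 at -10 kb, 0.467 at -4 kb and 0.552 at the promoter, and 39.5%, 7.08% and 17.6% of the shared sites had a lower ratio, so the -4 kb site and the promoter lay below the lower quartile. For Mafk over Bach1 the median was 0.541 (quartiles 0.344 to 1.00, 396 sites), and the Hmox1 sites had 0.369 at -10 kb and 0.298 at -4 kb, with 29.5% and 14.6% of sites lower, the -4 kb site below the lower quartile. Such ratios carry the depth and antibody of each library, so only their order among sites can be read. By that order, the -4 kb site was the more weighted towards Bach1 of the upstream sites. For Mafk the counting interval of this step (0.606 to 1.07) includes no difference, and no difference between factors is called. In fold enrichment, 5.42% of sites had a lower ratio of Bach2 to Bach1 than the -4 kb site, and 12.9% a lower ratio of Mafk to Bach1. These shares are not separate evidence, since background ratios between lists varied little. Their quartiles were 1.30 to 1.39 for Bach2 over Bach1 and 1.26 to 1.31 for Mafk over Bach1. A very strong Bach1 peak lowers the pileup and fold enrichment ratios by construction.

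**Figure D4:**
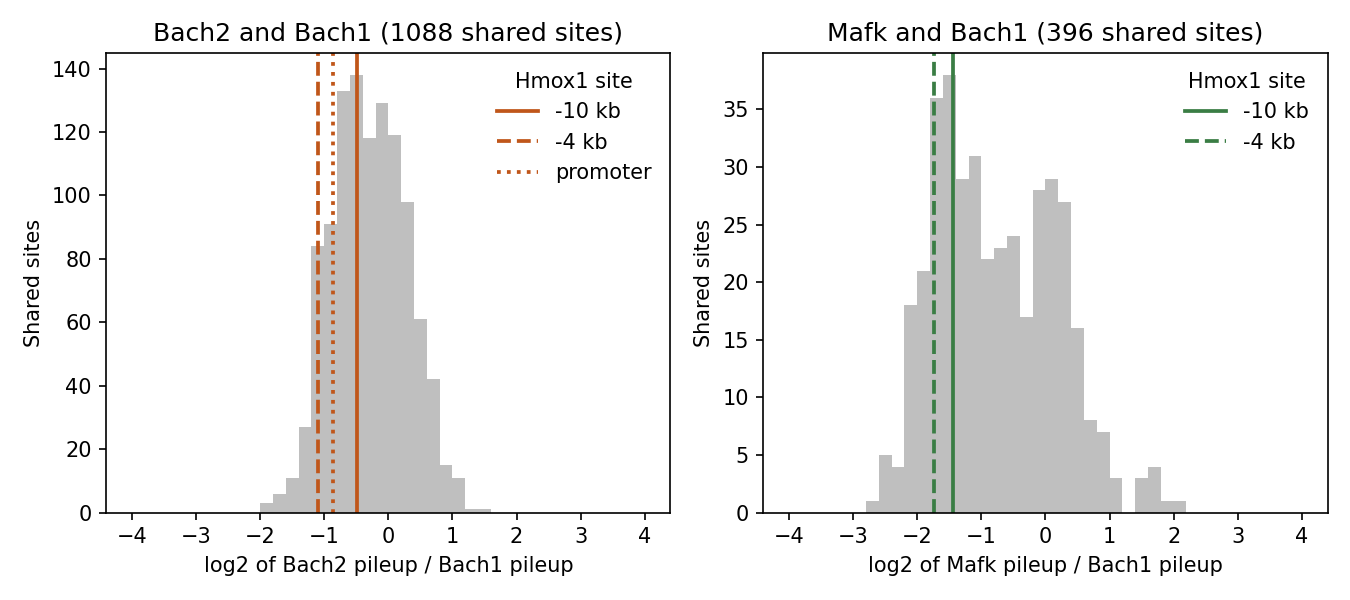
Histograms of log2 pileup ratios at sites with summits within 100 bp, for Bach2 over Bach1 (1088 sites) and Mafk over Bach1 (396 sites); vertical lines mark the Hmox1 sites. The -4 kb line lies to the left of the -10 kb line in both panels, with ratios of 0.467 against 0.714 for Bach2 and 0.298 against 0.369 for Mafk. For Mafk the counting interval of this step relative to Bach1 (0.606 to 1.07) includes no difference.

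The number of like pairs of peaks was counted with the lower upstream pileup of each factor as the threshold, so the Hmox1 pair is counted by construction and nothing is read from its rank. The Bach1 summits of the upstream sites were 5756 bp apart, and both peaks had pileups of at least 396 fragments. Of all Bach1 peaks, 23 reached that level and made 15 neighbouring pairs within 50 kb. Among those with a background under 5 times the lowest, a limit set after seeing the data, 4 reached it and the Hmox1 sites were the 1 pair. Among Mafk peaks, 62 reached the 118 fragments of the -4 kb site, and the Hmox1 sites were the 1 such pair. Among Bach2 peaks there were 3 such pairs at 185 fragments or more. Of windows of 50 kb centred on a peak, 4.21% held 4 or more Bach1 peaks, 7.44% 3 or more Bach2 peaks and 8.02% 2 or more Mafk peaks.

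For Bach1 and Mafk the nearest peak outside the window was much farther off downstream than upstream, while for Bach2 it was distant on both sides. How usual such gaps are in each list was not computed. Past the +15 kb peak, the next peak of Bach1, Bach2 and Mafk was in each case about 2358 kb from the start site, at 79975277 to 79975833 for Bach1 (pileup 232), 79975256 to 79975814 for Bach2 (287) and 79975384 to 79975634 for Mafk (83). Upstream, the nearest peak outside the window was a weak Bach1 peak at 77517425 to 77517761 (36 fragments, 99.9 kb before the start) and a Mafk peak at 77501225 to 77501650 (89 fragments, fold enrichment 10.9, 116 kb before). The nearest Bach2 peak on that side was 2410.2 kb away (75207169 to 75207429, 59 fragments).

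Among the 296 other regions with all 3 factors, those nearest to the -4 kb site in log2 fold enrichment of the 3 factors were on chromosome 19 at 59052868 to 59053937 (35.7 for Bach1, 10.1 for Bach2 and 6.67 for Mafk, a distance of 0.30), chromosome 11 at 75196791 to 75197527 (0.45) and chromosome 19 at 40749697 to 40750270 (0.53). The nearest to the -10 kb site were on chromosome 5 at 124501789 to 124502735 (22.8, 12.7 and 6.11, a distance of 0.18), chromosome 16 at 94457220 to 94457864 (0.20) and the same region at 40749697 to 40750270 on chromosome 19 (0.28). The Hmox1 sites were 0.55 apart on this scale. The Bach1 peaks in the 3 regions nearest to the -10 kb site were 574 to 947 bp long, against 2919 bp there. Their Bach1 pileups were lower, at 164 to 368 fragments against 420, so these lengths were not matched on pileup. In the 3 regions nearest to the -4 kb site the Bach1 peaks were 574 to 1070 bp long, against 1221 bp there.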

How the data were processed

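Per the submitters' processing notes, reads were processed with CASAVA 1.8, BWA 0.7.10 and MACS2 2.1.0 on mm9; settings and the control used in calling are not given in the sources used here. Per the labels' protocols, reads were paired ends of 51 bases. The 3 deposited peak lists give, per the file headers, a pileup and a fold enrichment for each peak, with its position and length. The deposited pileup is a signal in whole fragments at all peaks, not scaled between libraries, and the deposited fold enrichment is a ratio to the local control. Peak names carry a q threshold of 0.01. Sequencing depth is unknown. Coordinates are counted from 1.

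The members, comparisons and settings were chosen with earlier results of these data known. With 1 library per factor there was no test between groups. The control background was computed as (pileup + 1) / fold enrichment - 1. Intervals are 95% and exact, Poisson for single pileups and conditional binomial for their ratios, and cover counting error only; neighbouring values from 1 library share its errors. Peaks named outside the window were the nearest on each side in each list and the 3 regions nearest in fold enrichment to each upstream site. Computations used Python 3.11.15, numpy 2.4.6, pandas 2.3.3 and scipy 1.17.1, and were checked on simulated data. The planned search of the Hmox1 promoter for binding motifs was not run.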

Additional observations from a re-analysis of the deposited data

Results flagged for a closer look

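In fold enrichment, the step between the upstream Hmox1 sites went opposite ways between factors, with 1 library each. The log2 ratio of the -4 kb to the -10 kb site was 0.52 for Bach1 and 0.16 for Mafk, but -0.11 for Bach2. The difference was not tested, and no interval was computed for these log2 ratios. In pileup, the ratio of -4 kb to -10 kb for Mafk was 1.23 times that for Bach2. Its interval from counting error (0.902 to 1.69) includes no difference. In pileup the 3 factors all had the lower value at -4 kb, though for Bach1 the interval of the ratio (0.820 to 1.08) includes no difference.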

How the results depend on the processing

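Of 79 alternative values, 42 stayed within counting error or within 1.5 times a main count, 35 moved further and 2 reversed. The ratio of the -4 kb to the -10 kb site reversed in fold enrichment for Bach1 (1.43) and Mafk (1.12), and for Bach2 it moved to 0.925. The background, which is the divisor of fold enrichment, was at -4 kb 0.640 to 0.667 times that at -10 kb. The ratio of the -10 kb site to the promoter, an alternative added after seeing the data, moved in fold enrichment to 2.81 for Bach1 and 3.78 for Bach2. With a reciprocal overlap of 50%, 0 sites held all 3 factors and 1 held Bach1 and Bach2. The Mafk limit at the promoter ranged from 37.9 to 40.2 fragments. The other 30 that moved were ranks within a list, genome-wide overlap shares and 1 count of pairs. Without peaks of high background, an alternative chosen after seeing the data, neighbouring pairs of strong Bach1 peaks fell from 15 to 1. The sum over peaks of a site equals the single peak, since each site held 1 peak per factor. No paired analysis was possible because there is a single library per factor. No replicate could be left out. Depth is unknown, and a peak below the threshold of a list is not shown to be absent.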
